A study of Mus musculus with 4 samples.

Results

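The genes described here code for the DNA replication machinery: 44 genes of origin licensing, the replicative helicase, the polymerases, the clamp loader, the single-strand binding protein RPA, nucleotide supply and the chromatin assembly factor CAF-1. They were taken by symbol from a table of 24388 symbols, and all 44 were found there. The table compares 2 libraries of Np95 knockout spermatocytes with 2 libraries of control spermatocytes, all from C57BL/6 mice and all labelled 21 dpc, an abbreviation that the labels do not spell out. Np95, whose gene symbol is Uhrf1, recognises hemimethylated DNA behind the replication fork and recruits Dnmt1, which copies methylation to the new strand. The column headers spell the knockout "Np95cKO", while the sources used here give neither the allele and its deleted part, nor a Cre driver, nor the genotype of the controls beyond "control". The cells were single-cell suspensions of digested seminiferous tubules with no sorting step described, and poly(A) RNA was sequenced from them. Whether the replicates are separate animals is not labelled, so a p-value here measures only library-to-library spread, possibly technical.

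DNA replication begins when the origin recognition complex, Cdc6 and Cdt1 load the MCM2-7 ring onto DNA, a step called licensing that geminin blocks once S phase has begun. Cdc45 and the GINS complex then turn the ring into an active helicase, primase and the polymerases copy the strands, and the RFC complex loads the PCNA clamp that holds the polymerases on DNA. In the testis these genes serve the dividing spermatogonia and the last S phase before meiosis, and spermatocytes in meiotic prophase no longer copy their genome.

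Values are RPKM, reads scaled to the length of the gene and to the total of the library, with the mean ± SD over the 2 libraries of a group where a mean is given. The steps between low values follow the whole gene span, introns included, and not the exon length, so RPKM values of 1 gene are comparable across libraries, but those of different genes depend on their introns. If 1 step between low RPKM values is 1 read, the libraries held about 22270000 and 9650000 reads in knockout replicates 1 and 2, and 11660000 and 25690000 in control replicates 1 and 2. At that depth 38 of the 44 genes had 100 reads or more in every library, and the lowest was Tyms in control replicate 1 with about 11. A gene is called higher or lower where limma, fitted on log2(RPKM + 1) of 9099 genes, gave a Benjamini-Hochberg adjusted p under 0.05. Log2 fold changes are knockout minus control on that scale, and folds are ratios of group mean RPKM.

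Uhrf1 itself had 1.87 and 1.48 RPKM in the knockout libraries, against 3.11 and 3.29 RPKM in the control libraries, and was 1.91-fold lower (log2 fold change -0.65, SE 0.10, limma adjusted p = 0.0031). Genes that mark spermatocytes did not move together. Sycp3, a protein of the meiotic chromosome axis, had 30.0 and 26.6 RPKM in the knockout and 27.1 and 26.9 RPKM in the control. It was not called (limma adjusted p = 0.619). Of its list, meiotic entry, 8 of 10 tested genes were higher, beside 43.3% of all 9099 genes. Of 13 tested pachytene genes 12 were lower, beside 30.5% of all genes.

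The replication genes did not move as 1 block. Of the 44 genes, 39 passed the filter of 1 RPKM in at least 2 libraries, and in the knockout 19 of these were higher, 9 were lower and 11 were not called. The 19 are 48.7% of the tested members, beside 43.3% of all 9099 genes, and the 9 are 23.1%, beside 30.5% of all genes, so the plain counts stand near the background. Fewer members were called lower without either control library in turn, and so were fewer of all genes. Of the 19 higher genes, 9 reached a log2 fold change of 1, which is 23.1% of the tested members beside 10.6% of all genes, and no member fell by as much, beside 9.23% of all genes. Those 9 were Mcm2, Mcm3, Mcm4, Mcm5, Mcm6, Cdt1, Pole, Fen1 and Rrm2. The median log2 fold change of the tested members was 0.18, against 0.14 for all tested genes. Orc1, Orc4, Mcm4, Mcm10 and Rfc5 were below 1 RPKM in both control libraries and passed the filter through the knockout libraries alone, and Cdc6, Pola1, Pole2, Prim2 and Tyms did not pass it. Without the filter all 44 genes were tested, with 21 higher and 8 lower, beside 34.8% and 16.2% of 21208 genes, and Mcm10, Cdc45 and Gins2 were not called there. In that fit 9 were higher at least 2-fold on the log2 scale, beside 4.51%, and 0 were lower by as much, beside 3.92%. With a pseudocount of 0.1 and no filter, 22 were higher beside 35.8%, 12 of them at least 2-fold beside 17.6%, and 2 were lower at least 2-fold beside 7.08%. The knockout libraries lay above both control libraries for 28 of the 44 genes and below both for 14, beside 53% and 25.2% of all symbols above 0 and 51.8% and 38% of genes past the filter, and the groups overlapped for Rfc3 and Chaf1b.

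**Figure D1:**
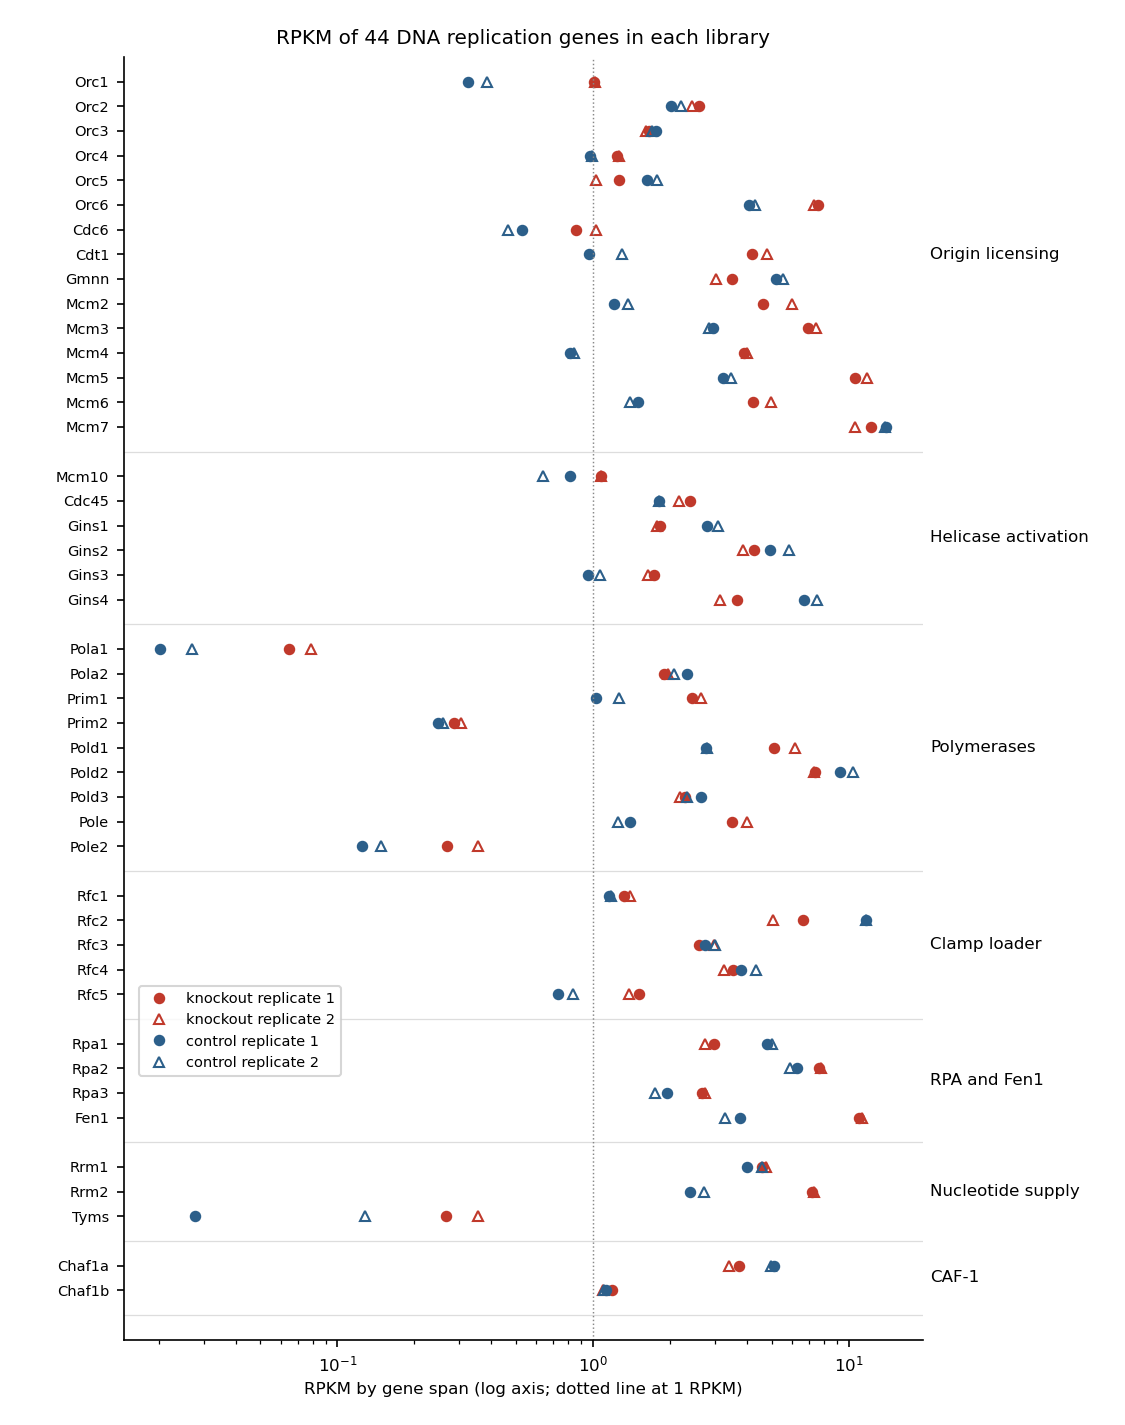
RPKM by gene span (log axis) of the 44 replication genes in each library, grouped by role, with knockout libraries in red and control libraries in blue and the dotted line at the filter of 1 RPKM. Mcm2 to Mcm6, Cdt1, Pole, Fen1 and Rrm2 lie far apart between the groups, with the knockout higher, while Gins4, Rfc2 and Rpa1 lie apart with the knockout lower.

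Markers of other cells and stages moved in the same libraries. Of the Sertoli cell list, 17 of 17 tested genes were higher, and the RPKM of the 21 found in the table summed to 420 and 519 in the knockout and to 139 and 161 in the control. Leydig cell genes were higher in 6 of 7 cases with sums of 64.9 and 55.8 in the knockout against 20.4 in each control library, and macrophage genes in 5 of 5 with sums of 15.9 and 12.5 in the knockout against 4.87 and 6.21 in the control. Genes of dissociation stress were higher in 14 of 14 cases, with sums of 106 and 153 in the knockout and 29.5 and 35.9 in the control. Genes of meiotic entry were higher in 8 of 10 cases and lower in none, spermatogonial genes were higher in 4 and lower in 2 of 6, and genes of pachytene and later spermatocytes were lower in 12 and higher in 1 of 13. The 1 peritubular or endothelial gene that passed the filter was higher too. Of all 9099 genes, 43.3% were higher and 30.5% lower. Passing the filter through the knockout libraries alone were 4 Sertoli, 1 Leydig, 2 macrophage, 4 stress, 3 meiotic entry and 1 spermatogonial gene. The pachytene list summed to 770 and 604 RPKM in the knockout, against 1708 and 1657 in the control, and 5 of 6 tested spermatid genes were lower. No marker was at 0 in all 4 libraries, while Inhba was at 0 in control replicate 1 and Prm2 at 0 in knockout replicate 2. The part of these differences in the results on replication genes was not tested, and in such bulk RNA fewer cells of a type and less RNA per cell cannot be told apart.

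Mcm2 to Mcm6, subunits of the MCM ring, were among the genes that rose most, and the remaining subunit, Mcm7, was not called. Mcm4 had 3.89 and 3.99 RPKM in the knockout libraries, against 0.816 and 0.844 RPKM in the control libraries. That is 4.74-fold higher (log2 fold change 1.43, SE 0.07, limma adjusted p = 0.00136). Mcm2 had 4.64 and 6.01 RPKM in the knockout and 1.21 and 1.37 RPKM in the control, 4.14-fold higher (log2 fold change 1.46, SE 0.13). Mcm5 had 10.6 and 11.8 RPKM in the knockout and 3.22 and 3.48 RPKM in the control, 3.34-fold higher (log2 fold change 1.48, SE 0.09). Both knockout libraries lay above both control libraries for each of these genes, by a margin larger than the gap between replicates. Mcm6 had 4.23 and 4.97 RPKM in the knockout and 1.497 and 1.40 RPKM in the control, 3.17-fold higher. Mcm3 had 6.92 and 7.45 RPKM in the knockout and 2.93 and 2.83 RPKM in the control, 2.49-fold higher. The limma adjusted p of Mcm2, Mcm3, Mcm5 and Mcm6 was 0.00136 too, the lowest value that any member reached. Mcm7 had 12.2 and 10.6 RPKM in the knockout and 14.0 and 13.9 RPKM in the control (log2 fold change -0.28, SE 0.10, adjusted p = 0.06). Its knockout libraries lay below its control libraries, and it was called lower with libraries centred on an equal median, without the mean-variance trend and without knockout replicate 1, while with an equal RPKM sum its log2 fold change was 0.11.

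A ratio of 2 genes within a library does not change when each library is scaled by 1 factor, though quantile normalization can change it. The RPKM of Mcm4 over that of Mcm7 was 0.319 and 0.378 in the knockout, against 0.0582 and 0.0609 in the control, a 5.85-fold change of the ratio. Mcm2 over Mcm7 was 0.381 and 0.570 in the knockout and 0.0860 and 0.0986 in the control, a 5.15-fold change. For Mcm3, Mcm5 and Mcm6 over Mcm7 the ratio changed 3.08-fold, 4.13-fold and 3.94-fold. These and the ratios further on come from 16 ratios, not all shown, that were chosen after the values were seen. They are given without a test, and an exact permutation of 2 against 2 libraries cannot go below p = 0.333.

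The ring holds each subunit once, and their levels can be compared after RPKM is rescaled from gene span to the exon length of the principal GENCODE transcript, an estimate that takes all reads as exonic. In RPKM per exon length, Mcm5 was the highest subunit in the knockout libraries, at 59.4 and 66.1, Mcm4 was the lowest, at 14.6 and 15.0, and Mcm7 lay at 31.0 and 26.8. In the control libraries Mcm7 was the highest, at 35.6 and 35.2, and Mcm4 again the lowest, at 3.07 and 3.18. The highest subunit exceeded the lowest 4.06-fold and 4.41-fold in knockout replicates 1 and 2, and 11.6-fold and 11.1-fold in control replicates 1 and 2. In knockout replicate 1 Mcm7 stood below Mcm5, Mcm6 and Mcm3, and in knockout replicate 2 also below Mcm2, at 27.3, a gap smaller than that between the replicates of either gene.

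**Figure D2:**
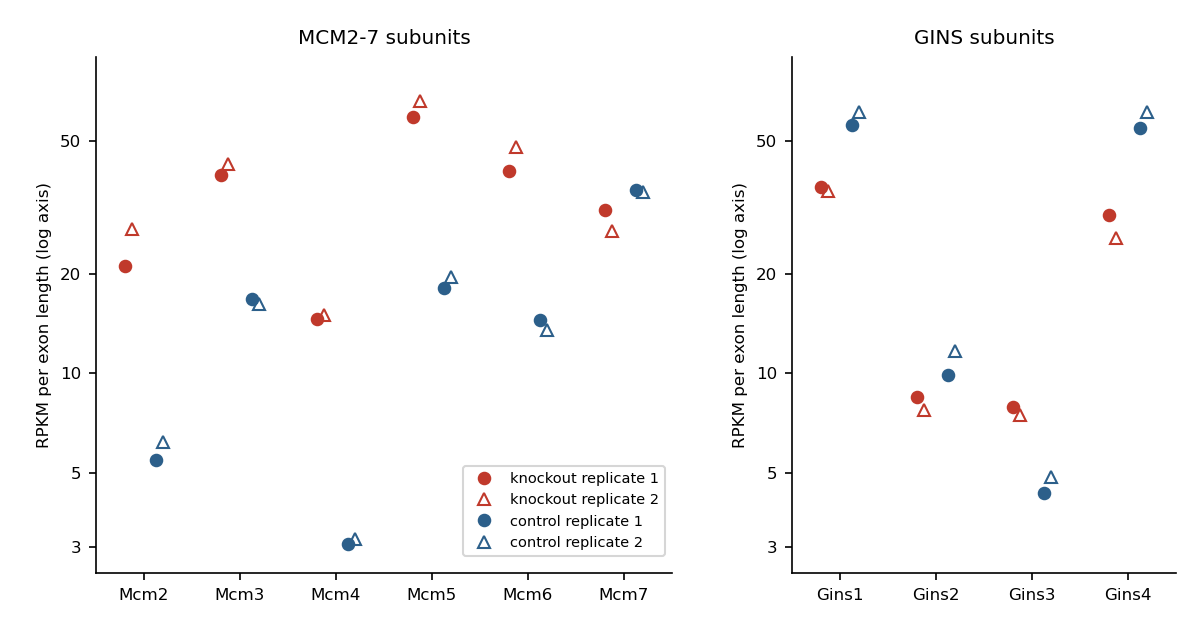
Estimated RPKM per exon length (log axis) of the MCM2-7 and GINS subunits in each library, with knockout libraries to the left of control libraries for each gene. The MCM subunits spread 4.06-fold and 4.41-fold in the knockout libraries and 11.6-fold and 11.1-fold in the control libraries, and Gins1, Gins2 and Gins4 lie lower in the knockout while Gins3 lies higher.

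Cdt1, a loader of the ring, was higher and Gmnn, its inhibitor, was lower. Cdt1, which brings MCM to the origin, had 4.17 and 4.81 RPKM in the knockout libraries, against 0.966 and 1.29 RPKM in the control libraries. It rose 3.98-fold (log2 fold change 1.37, SE 0.11, limma adjusted p = 0.00136). Gmnn, which codes for geminin, the inhibitor of Cdt1, had 3.50 and 3.02 RPKM in the knockout and 5.18 and 5.53 RPKM in the control. It was 1.64-fold lower (log2 fold change -0.58, SE 0.09, adjusted p = 0.0038), a call that ended with an equal RPKM sum (log2 fold change -0.24). The ratio of Cdt1 to Gmnn RPKM was 1.19 and 1.59 in the knockout and 0.186 and 0.234 in the control, 6.62-fold higher in the knockout. Cdc6, the ATPase that helps load MCM, had 0.860 and 1.03 RPKM in the knockout and 0.528 and 0.467 RPKM in the control. It was below the filter, and rose in the unfiltered fit (adjusted p = 0.025).

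The subunits of the origin recognition complex, which marks origins, were split. Orc1, the subunit whose level changes through the cell cycle, averaged 1.011 ± 0.00555 RPKM in the knockout and 0.354 ± 0.0415 RPKM in the control (SD, n = 2 each). It rose 2.85-fold, with an adjusted p of 0.0019 by limma. Orc6 averaged 7.46 ± 0.153 RPKM in the knockout and 4.18 ± 0.166 RPKM in the control and rose 1.78-fold (adjusted p = 0.0016). Orc5, in contrast, had 1.27 and 1.02 RPKM in the knockout and 1.63 and 1.77 RPKM in the control, 1.49-fold lower (log2 fold change -0.34, SE 0.09, limma adjusted p = 0.02). The call of Orc5 ended when either control library was left out, and with the RPKM sum set equal between libraries. Orc2, Orc3 and Orc4 were not called, with folds of 0.94 to 1.27. Of the 14 licensing genes tested 8 rose and 2 fell, beside 43.3% and 30.5% of all genes, and 3 of the 14 passed the filter through the knockout libraries alone. They had a median log2 fold change of 0.64 beside 0.14 for all genes.

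The promoters of many replication genes are known targets of E2F transcription factors, so RefSeq promoter windows (GRCm38.p6, from 250 bases before the start to 50 after it) were searched on both strands for the E2F-type octamers TTTCCCGC, TTTGGCGC, TTTCGCGC and TTTGCCGC. The reverse forms are GCGGGAAA, GCGCCAAA, GCGCGAAA and GCGGCAAA, and matches may overlap. A window was at hand for 36 of the 44 genes, and 14 of these (38.9%) held an octamer, against 2.6% of 27025 genes with a window. By call it was 7 of 17 higher genes, 4 of 11 genes not called and 0 of 4 lower genes. Of the genes below the filter it was 3 of 4. Gmnn, Gins1, Gins2, Gins4 and Rfc2, also called lower, had no window and were not searched. Of the genes that rose at least 2-fold on the log2 scale, 7 had a window and 4 held an octamer, namely Mcm3, Mcm5, Mcm6 and Cdt1, while Mcm2, Fen1 and Rrm2 held none. The median number of CpG dinucleotides per window was 22 over the 42 windows of the members and 7 over all 32851 windows. The 180 bases before the RefSeq start are shown for Mcm5, Mcm6 and Orc1, which rose and hold an octamer, for Mcm7, which has an octamer there as well and was not called, and for Rpa1, which fell and holds none. Bases just after the start were found in a GENCODE transcript of the gene for Mcm7 and Orc1. For Mcm5, Mcm6 and Rpa1 they were not, so their RefSeq starts were not borne out this way. Capitals mark the octamers, which overlap in Mcm5 and in the first run of Mcm6. They are Mcm5 at chr8:75109329-75109508 on the plus strand, Mcm6 at chr1:128359706-128359885 on the minus strand, Orc1 at chr4:108579274-108579453 on the plus strand, Mcm7 at chr5:138171884-138172063 on the minus strand and Rpa1 at chr11:75348384-75348563 on the minus strand, each written 5′ to 3′ along the gene.
Mcm5: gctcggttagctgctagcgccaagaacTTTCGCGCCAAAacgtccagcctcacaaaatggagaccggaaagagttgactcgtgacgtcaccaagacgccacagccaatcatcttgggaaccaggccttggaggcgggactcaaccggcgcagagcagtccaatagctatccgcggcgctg
Mcm6: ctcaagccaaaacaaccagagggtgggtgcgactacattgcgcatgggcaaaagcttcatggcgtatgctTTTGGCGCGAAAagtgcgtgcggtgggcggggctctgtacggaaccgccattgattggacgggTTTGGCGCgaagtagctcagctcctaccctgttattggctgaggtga
Orc1: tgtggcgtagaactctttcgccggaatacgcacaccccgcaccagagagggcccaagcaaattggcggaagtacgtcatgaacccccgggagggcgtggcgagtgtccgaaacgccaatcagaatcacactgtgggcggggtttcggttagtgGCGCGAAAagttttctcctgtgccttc
Mcm7: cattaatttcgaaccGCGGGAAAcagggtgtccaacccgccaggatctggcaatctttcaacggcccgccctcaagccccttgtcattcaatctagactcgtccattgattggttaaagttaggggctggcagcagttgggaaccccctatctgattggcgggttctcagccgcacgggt
Rpa1: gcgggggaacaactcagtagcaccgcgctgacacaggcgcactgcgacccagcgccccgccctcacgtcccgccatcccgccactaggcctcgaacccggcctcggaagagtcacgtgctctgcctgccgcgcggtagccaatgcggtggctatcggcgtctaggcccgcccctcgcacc

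Of 6 helicase activators 3 were higher and 3 lower, beside 43.3% and 30.5% of all genes, and the unfiltered fit called 1 higher and 2 lower. Those that fell were all GINS subunits. Gins4 had 3.67 and 3.13 RPKM in the knockout libraries, against 6.72 and 7.51 RPKM in the control libraries. It was 2.09-fold lower (log2 fold change -0.88, SE 0.10, limma adjusted p = 0.0017). Gins1 had 1.83 and 1.78 RPKM in the knockout and 2.80 and 3.07 RPKM in the control, 1.63-fold lower (log2 fold change -0.49, SE 0.08, adjusted p = 0.0036). Gins2 had 4.25 and 3.88 RPKM in the knockout and 4.94 and 5.84 RPKM in the control, 1.33-fold lower (log2 fold change -0.33, SE 0.10, adjusted p = 0.034). The call of Gins2 ended without knockout replicate 2, without either control library and with an equal RPKM sum. Gins3, the last subunit of this tetramer, averaged 1.69 ± 0.0664 RPKM in the knockout and 1.012 ± 0.081 RPKM in the control and rose 1.67-fold (adjusted p = 0.0051). The ratio of Gins3 to Gins4 RPKM was 0.474 and 0.525 in the knockout and 0.142 in each control library, a 3.51-fold change. Gins3 lost its call with quantile normalization and without control replicate 1. On the exon scale Gins3 was the lowest GINS subunit in every library, and the highest exceeded it 4.61-fold and 4.74-fold in the knockout libraries, against 12.8-fold and 12.6-fold in the control libraries. Cdc45, which joins the ring with GINS, averaged 2.29 ± 0.156 RPKM in the knockout and 1.81 ± 0.00295 RPKM in the control, 1.27-fold higher (adjusted p = 0.043). Mcm10, needed to fire the helicase, averaged 1.07 ± 0.00145 RPKM in the knockout and 0.726 ± 0.124 RPKM in the control, 1.48-fold higher (adjusted p = 0.033). The log2 fold changes of Cdc45 and Mcm10, 0.23 and 0.27, stand close to the 0.14 of all genes, and neither call held with an equal median, with quantile normalization or without either control library or knockout replicate 1.

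Of 6 tested polymerase genes 3 were higher and 1 lower, beside 43.3% and 30.5% of all genes. The 3 were the catalytic subunits Pole, Pold1 and Prim1, while the accessory Pold2, Pold3 and Pola2 did not rise. This grouping was not set in advance and holds only for these 6 genes. Pole2, an accessory subunit below the filter, was called higher in the unfiltered fit, and Prim2 was not called there. Outside the members, accessory Pole4 was called higher, Pole3 was called lower and Pold4 was not called. Pole, the catalytic subunit of the leading-strand polymerase epsilon, had 3.51 and 3.99 RPKM in the knockout libraries, against 1.40 and 1.25 RPKM in the control libraries. It rose 2.83-fold (log2 fold change 1.03, SE 0.09, limma adjusted p = 0.00136). Pold1, the catalytic subunit of the lagging-strand polymerase delta, averaged 5.64 ± 0.774 RPKM in the knockout and 2.78 ± 0.00667 RPKM in the control, 2.03-fold higher (adjusted p = 0.0021). Prim1, the catalytic subunit of primase, averaged 2.54 ± 0.14 RPKM in the knockout and 1.15 ± 0.164 RPKM in the control, 2.21-fold higher (adjusted p = 0.0019). Pold2, an accessory subunit of polymerase delta, had 7.37 and 7.33 RPKM in the knockout and 9.28 and 10.4 RPKM in the control. It was 1.34-fold lower (log2 fold change -0.37, SE 0.09, adjusted p = 0.016), and lost its call with an equal RPKM sum, with quantile normalization and without either control library. The ratio of Pold1 to Pold2 RPKM was 0.691 and 0.845 in the knockout and 0.299 and 0.268 in the control. Pold3 and Pola2, accessory subunits of polymerases delta and alpha, were not called, with log2 fold changes of -0.11 and -0.12.

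Pola1, Prim2 and Pole2 have long introns or low levels and were below the filter. Pola1, the catalytic subunit of polymerase alpha and the only member on the X chromosome, had 0.0647 and 0.0789 RPKM in the knockout libraries and 0.0203 and 0.0270 RPKM in the control libraries. Over its span of 327622 bases that is about 472 and 250 reads in the knockout and 77 and 227 in the control. It was called higher in the unfiltered fit (adjusted p = 0.017), 3.04-fold in mean RPKM. Pole2, the second subunit of polymerase epsilon, was 2.28-fold higher and called in the same fit (adjusted p = 0.027). Prim2, the large subunit of primase, was 1.16-fold higher and not called (adjusted p = 0.26). These genes were named for their low values after those were seen.

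**Figure D3:**
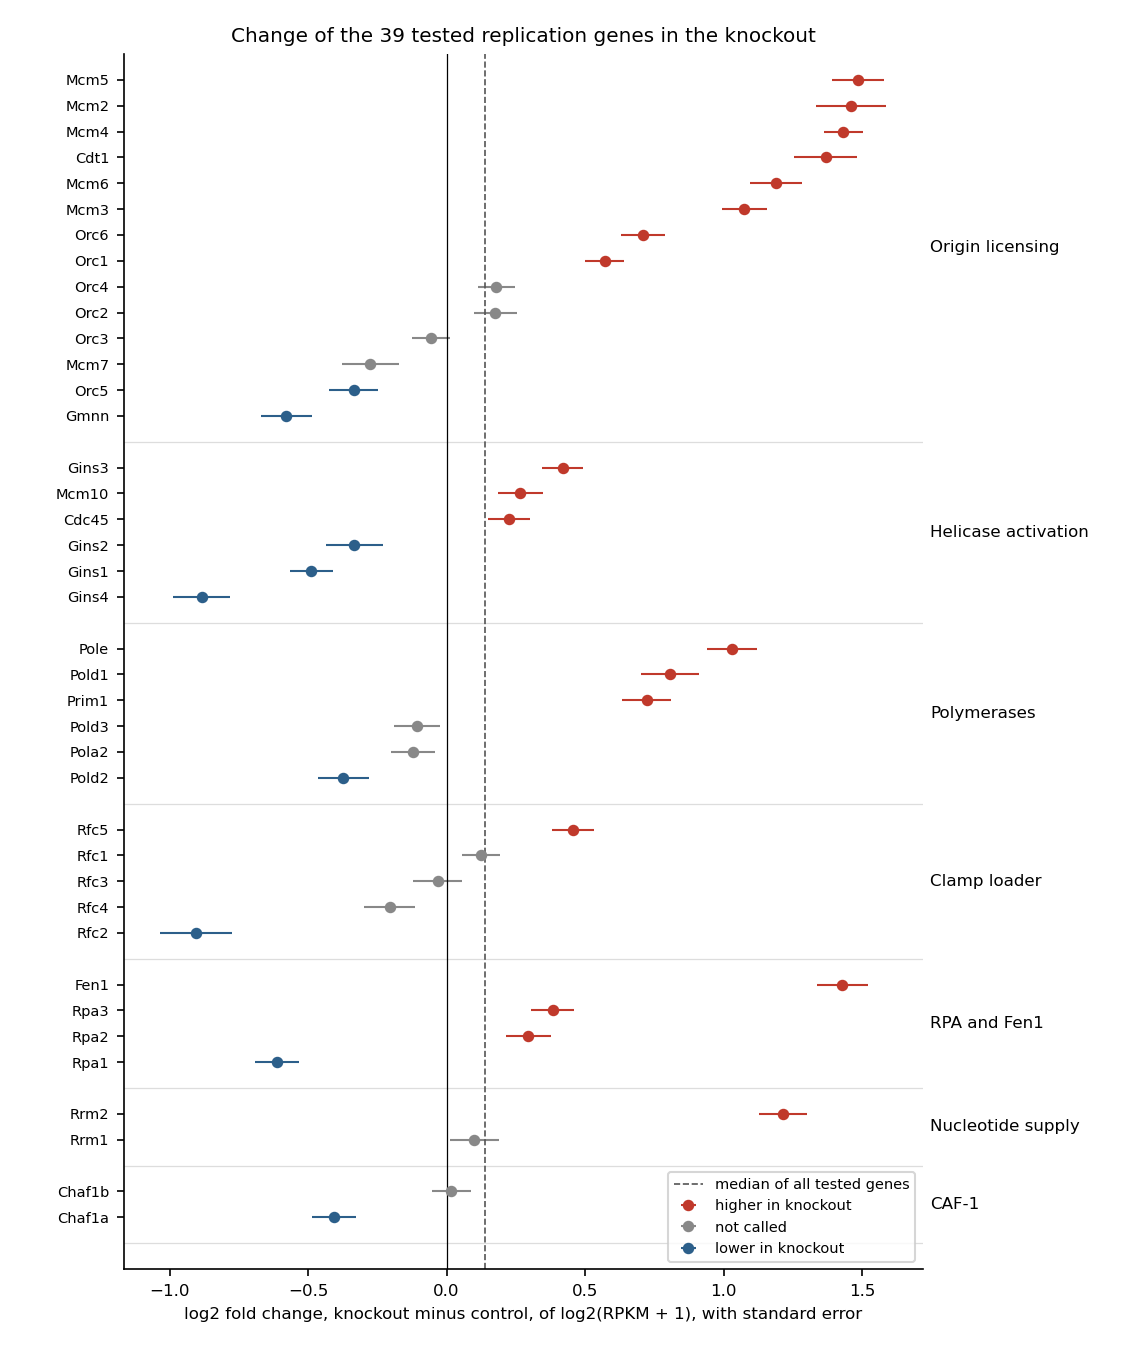
Log2 fold change (knockout minus control, of log2(RPKM + 1)) with its standard error for the 39 tested genes by role, coloured by limma call, with the dashed line at the median of all tested genes, 0.14. Each role except CAF-1 holds genes on both sides of that line, from 1.48 for Mcm5 to -0.90 for Rfc2.

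The clamp loader moved both ways. Rfc2, a small subunit of RFC, had 6.62 and 5.08 RPKM in the knockout libraries, against 11.7 RPKM in each control library. It was 2.01-fold lower (log2 fold change -0.90, SE 0.13, limma adjusted p = 0.0027). Rfc5, another small subunit, averaged 1.44 ± 0.0899 RPKM in the knockout and 0.781 ± 0.0719 RPKM in the control and rose 1.85-fold (adjusted p = 0.0042), a call that ended with quantile normalization. The ratio of Rfc5 to Rfc2 RPKM was 0.228 and 0.272 in the knockout and 0.0622 and 0.0709 in the control, a 3.76-fold change. Rfc1, the large subunit, and Rfc3 and Rfc4 were not called, with log2 fold changes of 0.12, -0.03 and -0.21.

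RPA coats single-stranded DNA in replication and, in spermatocytes, at meiotic breaks. Its large subunit Rpa1 had 2.97 and 2.75 RPKM in the knockout libraries, against 4.79 and 5.005 RPKM in the control libraries. It was 1.71-fold lower (log2 fold change -0.61, SE 0.08, limma adjusted p = 0.0021). The other subunits rose, Rpa2 1.26-fold (adjusted p = 0.023) and Rpa3 1.47-fold (adjusted p = 0.0077), and Rpa2 lost its call with an equal median and without either control library. Rpa3 lost its call with an equal median, with quantile normalization and without control replicate 2. Rpa2 over Rpa1 was 2.58 and 2.82 in the knockout and 1.31 and 1.18 in the control. Fen1, the nuclease that trims flaps of Okazaki fragments, had 10.99 and 11.3 RPKM in the knockout and 3.75 and 3.28 RPKM in the control. It rose 3.17-fold (log2 fold change 1.43, SE 0.09, adjusted p = 0.00136).

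For nucleotide supply, the regulated subunit of ribonucleotide reductase rose and the large subunit was not called. Rrm2 had 7.19 and 7.30 RPKM in the knockout libraries, against 2.39 and 2.73 RPKM in the control libraries, and rose 2.84-fold (log2 fold change 1.22, SE 0.09, limma adjusted p = 0.00136). Rrm1 averaged 4.66 ± 0.0993 RPKM in the knockout and 4.29 ± 0.387 RPKM in the control (log2 fold change 0.10, SE 0.09, adjusted p = 0.35). The ratio of Rrm2 to Rrm1 RPKM was 1.57 and 1.54 in the knockout and 0.594 and 0.597 in the control. Tyms, thymidylate synthase, had 0.267 and 0.354 RPKM in the knockout and 0.0278 and 0.128 RPKM in the control, and was called higher in the unfiltered fit (adjusted p = 0.032). The row of its pseudogene Tyms-ps had 3.15 and 4.19 RPKM in the knockout and 0.798 and 1.64 RPKM in the control, and since the copies share sequence the values of Tyms are uncertain.

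CAF-1 places histones on new DNA, and its subunits differed. Chaf1a, the large subunit, had 3.71 and 3.40 RPKM in the knockout libraries, against 5.08 and 4.98 RPKM in the control libraries. It was 1.42-fold lower (log2 fold change -0.41, SE 0.08, limma adjusted p = 0.0074). The call ended with an equal RPKM sum and without either control library. Chaf1b averaged 1.14 ± 0.0654 RPKM in the knockout and 1.11 ± 0.0137 RPKM in the control (adjusted p = 0.85).

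The library kit does not mark strand, and the exons of 14 members overlap another gene in GENCODE M21, so reads of both genes cannot be told apart there. Shared bases are counted over all coding transcripts of a member and summed over its neighbours. They are therefore not a share of the principal transcript length. Chaf1a, with a principal transcript of 5535 bases, shares 2692 exon bases with Ubxn6 on the other strand. Ubxn6 had 25.4 and 23.8 RPKM in the knockout and 54.6 and 65.5 RPKM in the control. Fen1, with a principal transcript of 2373 bases, shares 2039 bases with other genes. Of these genes, Tmem258 had 8.40 and 5.97 RPKM in the knockout and 16.7 and 16.1 RPKM in the control, a difference opposite to that of Fen1. Gins2, with a principal transcript of 3900 bases, shares 2758 bases with Gse1. Gse1 had 0.636 and 0.676 RPKM in the knockout and 0.631 and 0.598 RPKM in the control. Mcm7, with a principal transcript of 2962 bases, shares 385 bases with Cops6 and Ap4m1. Cops6 had 29.1 and 28.4 RPKM in the knockout and 39.2 and 40.2 RPKM in the control. Rfc2 overlaps Lat2, Rfc5 overlaps Wsb2 and Orc6 overlaps Vps35. For Lat2, Wsb2 and Vps35, as for Ubxn6 and Cops6, the knockout libraries lay apart from the control libraries in the same direction as the member. For Gse1 they lay slightly above the control libraries, opposite to Gins2. The part of shared reads in these values was not tested.

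Directions of small size depended on how the libraries were scaled to each other. The median log2 fold change of all tested genes was 0.14 as deposited, 0.44 with the RPKM sum set equal between libraries, -0.05 with an equal median and 0.01 with quantile normalization. Relative to that median, the median of the tested members was 0.04, 0.03, 0.04 and -0.06 in the same order. Of all 9099 genes, 3943, 5346, 3045 and 3157 were higher and 2776, 1698, 3538 and 3042 lower, in that order. Of the 19 genes called higher, 13 kept the call under each of these scalings. They were Mcm2 to Mcm6, Cdt1, Pole, Pold1, Prim1, Fen1, Rrm2, Orc1 and Orc6. Mcm4 and Orc1 passed the filter through the knockout libraries alone, and how many of all genes kept a call was not counted. Of the 9 genes called lower, Gins4, Rfc2 and Rpa1 kept the call under each scaling, while Gmnn, Gins1, Gins2, Orc5, Pold2 and Chaf1a were not called with an equal RPKM sum, where Gins2 had a log2 fold change of 0.01.

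**Figure D4:**
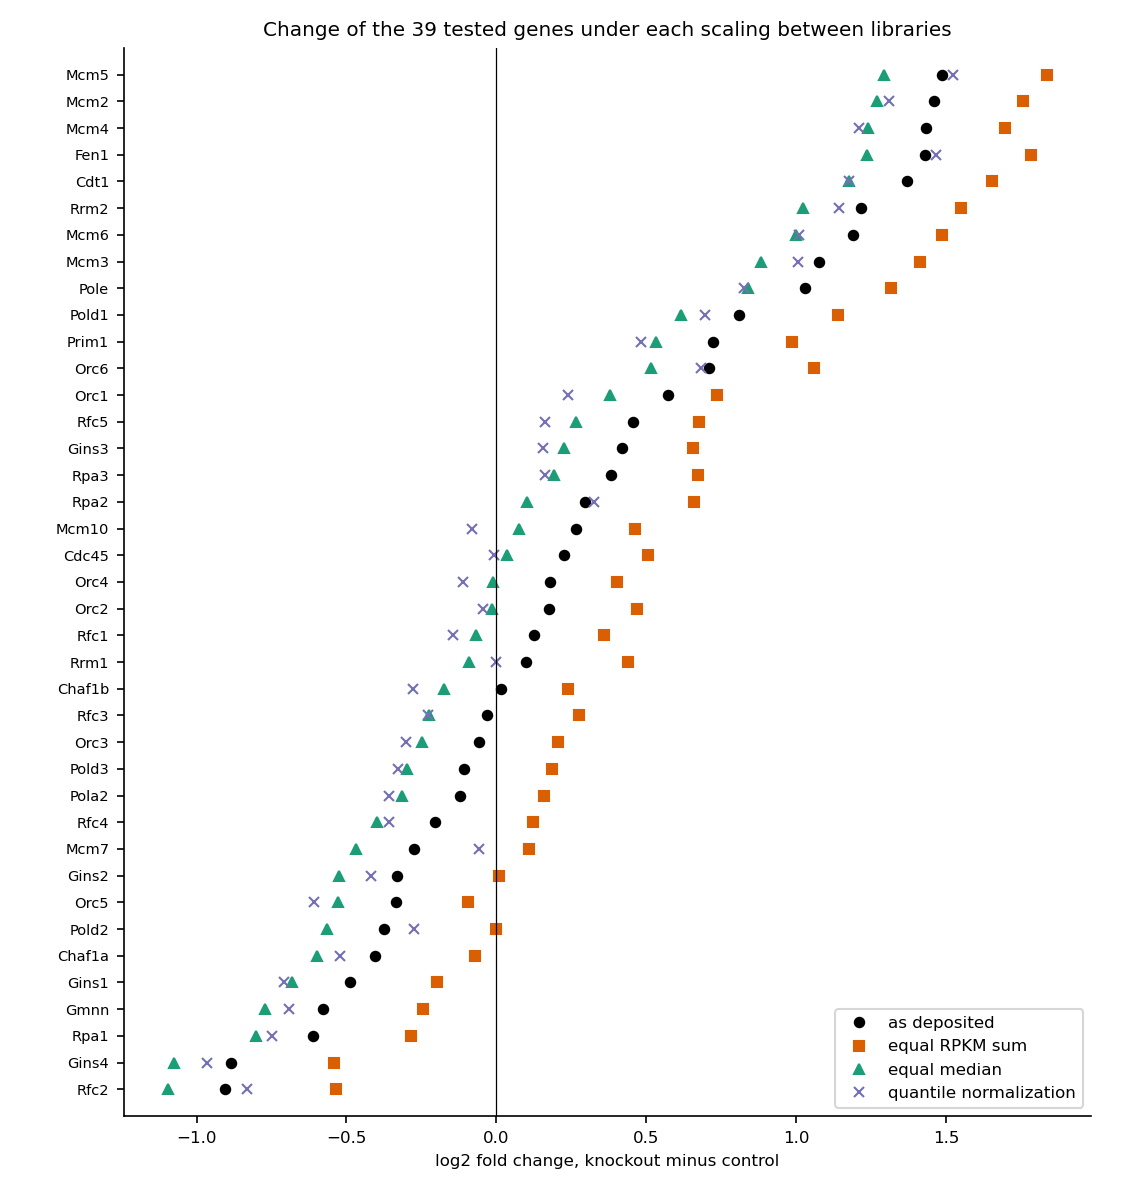
Log2 fold change (knockout minus control) of the 39 tested genes as deposited, with an equal RPKM sum, with an equal median and with quantile normalization. Mcm5 at the top stays above 1 and Gins4 and Rfc2 at the bottom stay below 0 under each scaling, while genes in the middle change sign.

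Other factors of the replication fork, from a list of 34 genes, were higher in 20 of 30 tested cases and lower in 4, beside 43.3% and 30.5% of all genes, with a median log2 fold change of 0.49 beside 0.14 for all genes, and 6 of the 30 passed the filter through the knockout libraries alone. Lig1, the ligase that joins Okazaki fragments, had 4.48 and 4.76 RPKM in the knockout and 1.55 and 1.73 RPKM in the control. It was 2.81-fold higher (limma adjusted p = 0.00136). Atad5, which unloads the clamp, and Top2b, a topoisomerase, rose 5.55-fold and 3.71-fold, and both were below 1 RPKM in both control libraries. The 4 that fell were Rnaseh2a, Rnaseh2c, Donson, a fork protein, and Pole3, a subunit of polymerase epsilon. Rnaseh2a and Rnaseh2c are subunits of the nuclease that removes ribonucleotides from DNA. Pole4, another subunit of polymerase epsilon, was 1.405-fold higher (limma adjusted p = 0.0096). Rnaseh2a had 5.95 and 4.03 RPKM in the knockout and 18.0 and 18.1 RPKM in the control, 3.62-fold lower (adjusted p = 0.0014). Pcna, the clamp, had 27.5 and 26.3 RPKM in the knockout and 29.7 and 32.9 RPKM in the control and was not called (adjusted p = 0.13).

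Other nucleotide enzymes were higher in 7 of 12 tested cases and lower in 2, beside the same background, with Dck, Ctps and Gart rising 4.30-fold, 3.87-fold and 2.08-fold. Dck and Ctps passed the filter through the knockout libraries alone. Dut and Dtymk, enzymes of the route to thymidine nucleotides, were 1.73-fold and 1.65-fold lower. Among E2F and retinoblastoma family genes 4 of 8 tested were higher and 1 lower, beside 43.3% and 30.5% of all genes, and 3 of the 8 passed the filter through the knockout libraries alone. The unfiltered fit called 11 of 16 higher and 0 lower, beside 34.8% and 16.2%. E2f1 had 3.65 and 4.76 RPKM in the knockout and 0.997 and 0.943 RPKM in the control, 4.34-fold higher (limma adjusted p = 0.00136). E2f1 passed the filter through the knockout libraries alone. E2f8, a repressor of E2F targets, had 0.792 and 0.838 RPKM in the knockout and 1.27 and 1.05 RPKM in the control and was the gene that fell, and it passed the filter through the control libraries alone. Of a list of cyclins, kinases, their inhibitors and other cell-cycle regulators with Mki67, 9 of 13 tested were higher, beside 43.3% of all genes. Ccnd2 and Cdkn1a passed the filter through the knockout libraries alone, and the unfiltered fit called 9 of 16 higher, beside 34.8%. Mki67, a marker of dividing cells, had 7.79 and 9.20 RPKM in the knockout and 2.58 and 2.46 RPKM in the control. The kinase inhibitors Cdkn1a and Cdkn1b rose too, 2.79-fold and 2.46-fold, while the kinases Cdk1 and Cdk2 were not called. The gene of that list that fell was Ccna1, the cyclin of later spermatocytes, with 1.99 and 0.629 RPKM in the knockout and 9.12 and 9.61 RPKM in the control. Of the meiotic relatives of replication proteins 4 of 5 tested were higher, beside 43.3% of all genes, and Mcmdc2 was not called. The unfiltered fit called 4 of 7 higher, beside 34.8%. Mcm8, a helicase of recombination, was 2.47-fold higher after passing the filter through the knockout libraries alone.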

How the data were processed

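The table deposited by the authors holds RPKM values with 1 column per library, per the file headers. Bowtie2 and mm9 are listed, without a version, in the submitters' processing notes, and no source used here names the counting program or annotation. Of 24444 rows, 27 named by dates were dropped, and of repeated symbols only the row of highest mean RPKM was used (29 rows dropped). Low RPKM values times RefSeq gene span (GRCm38.p6) came within 0.02 of whole steps for 39% to 42.9% of values per library, against 4% by chance and 4.28% to 4.49% by exon length. Reads of the other values were not recovered, so no count test was run.

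Genes at 1 RPKM or more in at least 2 of 4 libraries (9099) were fitted as log2(RPKM + 1) by limma 3.58.1 (R 4.3.3) with a mean-variance trend, two-sided, with Benjamini-Hochberg adjustment over all of them. This scale understates the change of low genes. The replication genes, other lists and tests were chosen with earlier results of these data known. By rule, library values are given for members called at a log2 fold change of 1 or more, for members called lower and for Cdc6, and in other lists for up to 3 called genes of smallest p and those moving against the rest. Other genes given by library or mean, the gene ratios, and the alternative with no filter and a pseudocount of 0.1 were chosen after seeing values. Exon lengths are of the longest principal coding transcript in GENCODE M21, and sequences are RefSeq's on GRCm38.p6, not the authors' mm9. Alternatives changed the pseudocount, filter, scaling, trend, replicate block, repeated symbols and libraries included.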

Additional observations from a re-analysis of the deposited data

How the results depend on the processing

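The counts of replication genes moved with several choices. With a filter at 5 RPKM, which left 12 members, 7 were higher, 4 of them at least 2-fold, and 4 were lower. Under that filter 1080 of all 3468 genes tested were higher and 1629 lower, so its background differs from that of the main fit. With an equal RPKM sum 3 members were lower in place of 9, and with an equal median 14 were. Calls over all 9099 genes moved the same way, with 1698 lower with an equal RPKM sum, 2776 as deposited and 3538 with an equal median. The count lower at least 2-fold, 0 by limma as reported, was 2 with a pseudocount of 0.1, with and without the filter, and 2 with an equal median. Leaving out 1 library at a time gave 15 to 18 higher, 5 to 10 lower (5 without either control library), 8 to 9 higher at least 2-fold and 0 to 1 lower at least 2-fold (1 without knockout replicate 1). Other counts stayed within 1.5 times. For single genes, 540 of 600 values kept their side of the threshold and, where called, their direction, 39 lost a call, 16 gained 1 and 5 changed sign with a call under at least 1 of the settings. The last were Mcm10 (-0.082), Cdc45 (-0.0073) and Chaf1b (-0.28) with quantile normalization, and Gins2 (0.0098) and Rfc3 (0.28) with an equal RPKM sum. The cause was not tested. The replicate numbers do not pair the libraries by any label. With the replicate block 18 members were higher and 9 lower, beside 3868 and 2721 of all 9099 genes. Of the members 9 were higher at least 2-fold and 0 lower at least 2-fold. The replicate 1 deviations of the groups correlated at r = 0.11 across genes. Cdc45 lost its call under the block. Depth limits Tyms, Pole2, Cdt1, Rpa3, Pola1 and Rfc5 most, each with under 100 reads in control replicate 1.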
